A study of Arabidopsis thaliana with 34 samples.

Results

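The transcripts described are those of 10 expansin genes of Arabidopsis thaliana, chosen by name from the 33321 loci of the count table: the alpha-expansins EXPA1, EXPA3, EXPA4, EXPA5, EXPA6, EXPA8, EXPA10, EXPA11 and EXPA15 and the beta-expansin EXPB3. Expansins are secreted proteins that loosen plant cell walls at acid pH without cutting wall polymers, so that a turgid cell can extend. Alpha-expansins mediate this acid growth in most tissues, and repression of EXPA1, EXPA3, EXPA5 and EXPA10 together is known to alter leaf growth in Arabidopsis. In growing shoots, auxin, brassinosteroids and gibberellins are known to act partly through expansin genes, and auxin acidifies the wall through plasma membrane proton pumps.

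Whole aerial tissue was taken from seedlings 15 days old, each sample a pool of 5 to 15 seedlings of 1 genotype, and its mRNA was sequenced. The F1 hybrids were C24xLer and LerxC24 (4 libraries each), and C24xCol, ColxC24, ColxLer and LerxCol (2 libraries each). Their parents were the inbred accessions C24 (6 libraries), Col (2 libraries) and Ler (4 libraries). All plants were of the lines C24, Col and Ler or crosses between them, with no transgene or treatment named in the labels. Whether the maternal parent stands first in the name of a cross is not stated there. The series asks how F1 hybrids come to grow larger than their parents. The rule that names the 10 genes also sets these 28 of the 34 libraries. It leaves out the 4 libraries lettered C, with 13198638 to 20435372 counts and 11393 to 11692 loci at 0, and the libraries Ler D and Ler E. The 28 held 36324848 to 88686247 counts and 2072 to 2742 loci at 0. In Ler D and Ler E, 12 genes that were near 0 in Ler A and Ler B reached a median of 51.9% and 48.3% of their C24 and Col level, against 0.501% in Ler F and 0.661% in Ler G, a check chosen after the values were seen. The libraries carry letters, A and B in every genotype and others in some samples of C24, Ler and their hybrids. The table letters 2 LerxC24 columns D and E, while the titles of that group carry F and G in their place, so these libraries are here called U1 and U2 and given no letter. The submitters' design text calls the samples biological replicates.

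Levels are CPM, read counts scaled to library size with TMM factors. Changes are log2 fold changes from edgeR's quasi-likelihood test on all genes, called at an adjusted p below 0.05. The SE given with ± beside a change was derived from that test, as the absolute change divided by the square root of its F statistic. All 10 genes passed the filter on low counts in both fits, at 378 or more counts in every library. None overlapped another annotated gene, and of the 50-base stretches of their exons 0% occurred elsewhere in the genome. The shoot markers RBCS1A, RBCS3B, RCA and LHCB1.3 summed to 25310 to 46390 CPM and 5 root hair genes to 6.349 to 12.47 CPM over the 28 libraries. In bulk tissue, fewer cells of a type and less RNA per cell cannot be told apart.

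EXPA1 (AT1G69530) lies on chromosome 1 of Arabidopsis at 26141726 to 26143538 on the plus strand of TAIR10.1, and its transcript, known from guard cells and growing leaves, was the most abundant of the 10 per length. EXPA10 (AT1G26770), known from growing leaves and petioles, lies on chromosome 1 at 9259432 to 9261313 on the plus strand. EXPA11 (AT1G20190) lies on the same chromosome at 6998335 to 6999839 on the minus strand. The 250 bases before each annotated gene start are shown for EXPA10 and EXPA11 because they were the members called between inbred parents with genotype alone, and for EXPA1 because it was the most abundant member and shares a stretch with EXPA10. Other members, described below, were also called between parents when library letters were fitted. They are the reference sequence of NCBI's TAIR10.1, which comes from Col, and do not show the C24 or Ler alleles. Capitals mark the letters of the motifs searched, on either strand: the PBE box CACATG that PIF growth factors bind, the brassinosteroid elements CGTGTG and CGTGCG, and the auxin elements TGTCTC and TGTCGG.
EXPA1, chr1:26141476-26141725, plus strand: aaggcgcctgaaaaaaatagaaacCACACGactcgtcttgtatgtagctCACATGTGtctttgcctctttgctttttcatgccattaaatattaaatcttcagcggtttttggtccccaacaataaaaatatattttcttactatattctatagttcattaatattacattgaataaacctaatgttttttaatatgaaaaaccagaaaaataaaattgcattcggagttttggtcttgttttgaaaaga
EXPA10, chr1:9259182-9259431, plus strand: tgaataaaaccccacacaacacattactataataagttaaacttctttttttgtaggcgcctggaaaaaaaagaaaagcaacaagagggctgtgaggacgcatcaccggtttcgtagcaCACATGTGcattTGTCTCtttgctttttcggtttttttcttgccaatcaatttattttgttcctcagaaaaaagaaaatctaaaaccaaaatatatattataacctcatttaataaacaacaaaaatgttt
EXPA11, chr1:6999840-7000089, minus strand: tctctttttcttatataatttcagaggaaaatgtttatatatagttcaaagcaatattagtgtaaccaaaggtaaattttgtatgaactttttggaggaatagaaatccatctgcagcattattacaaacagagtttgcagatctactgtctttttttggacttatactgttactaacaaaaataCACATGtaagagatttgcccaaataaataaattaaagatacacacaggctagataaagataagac
The windows of EXPA1 and EXPA10 both held the palindrome CACATGTG, in which CACATG and its reverse complement overlap; it was looked for after those windows were seen. It occurred in 103 of 27443 windows of protein-coding genes, or 0.375%. It lies within a stretch of 35 aligned columns, 31 of them identical (88.6%), from 207 to 173 bases before the start of EXPA1 and from 137 to 103 bases before that of EXPA10. No other pair of the 10 windows reached its alignment score. The alignment was made after the levels of EXPA1 and EXPA10 were seen. EXPA11 held CACATG once, 65 bases before its start, and 11.1% of all windows held that motif. The G-box CACGTG was in none of the 10 windows and in 6.49% of all. TGTCTC was in the windows of EXPA5, EXPA6 and EXPA10 (10.9% of all), CGTGTG in those of EXPA1 and EXPA6 (5.37%), and CGTGCG and TGTCGG in that of EXPB3 (1.57% and 4.16%). A match describes letters and does not show a binding site.

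**Figure D1:**
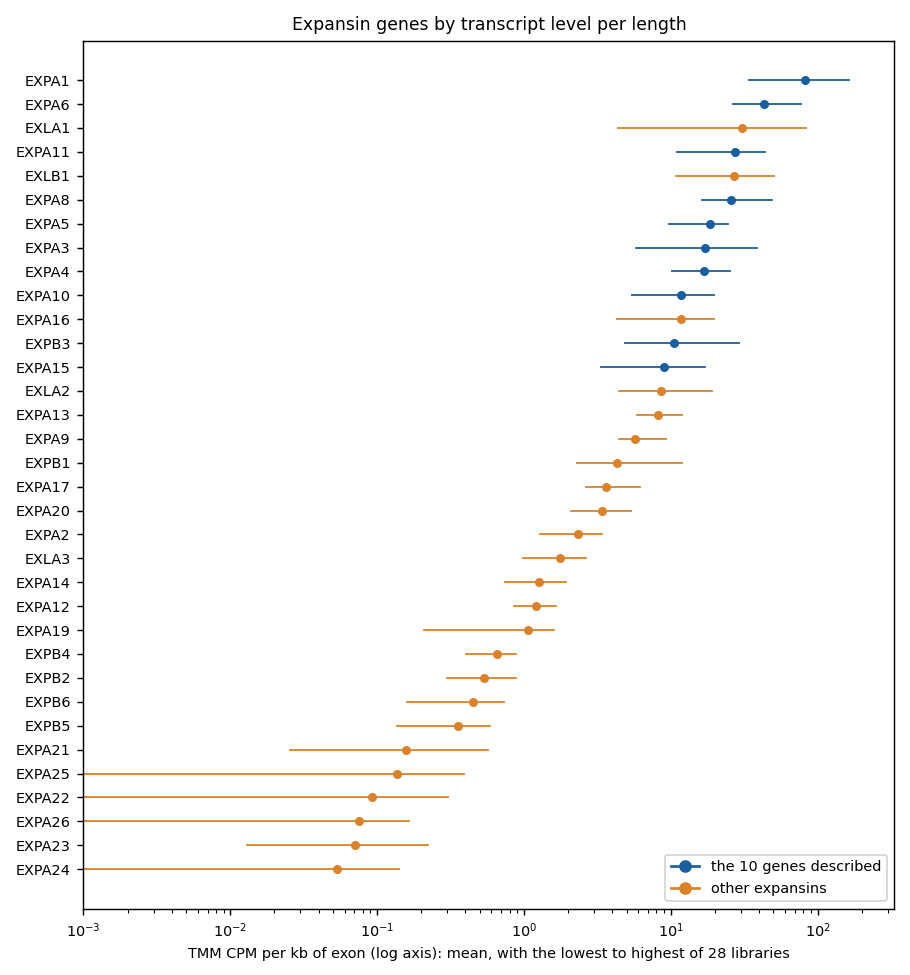
Mean transcript level of 34 expansin genes, in TMM CPM per kb of exon on a log axis, with lines from the lowest to the highest of 28 libraries; a line that meets the left edge has a library at 0. The 10 genes described (blue) lie between 9.02 and 81.7 on average, above 21 of the 24 other expansins shown (orange). EXPA7 and EXPA18, listed also as root hair genes, are not drawn and averaged 1.66 and 0.328.

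Per kb of exon, EXPA1 averaged 81.7 CPM over the 28 libraries, EXPA6 42.9, EXPA11 27.4, EXPA8 25.7, EXPA5 18.4, EXPA3 17.2, EXPA4 16.8, EXPA10 11.8, EXPB3 10.6 and EXPA15 9.02. Among the other expansins, the expansin-like genes EXLA1 (30.7 CPM per kb) and EXLB1 (27.1) and the alpha-expansin EXPA16 (11.7) were the most abundant. Summed without regard to length, the 10 transcripts took 249 CPM in the lowest library, C24 B, and 623 CPM in the highest, a C24xLer library. Across libraries, EXPA3 varied most, 6.62-fold between Ler B and C24 G, while EXPA5 and EXPA4 each varied 2.50-fold.

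EXPA11 was the member whose transcript set Ler apart from every other genotype. Its level was 14.8, 17.1, 26.6 and 27.0 CPM in Ler libraries A, B, F and G, while its lowest value in any other library was 27.3 CPM, in Col A. The 6 C24 libraries had a low of 31.6, a median of 35.9 and a high of 40.1 CPM, and the Col libraries A and B had 27.3 and 45.4 CPM. Neither C24 nor Col overlapped these Ler libraries. Ler D and Ler E, outside the 28, had 33.6 and 48.0 CPM on a scaling over all 34, against at most 28.4 CPM in the other Ler libraries of letters A, B, F and G. The share of all genes that separate Ler in this way was not counted.
C24xLer libraries A, B, D and E had 28.6, 40.7, 51.8 and 49.3 CPM of EXPA11, and LerxC24 libraries A, B, U1 and U2 had 35.9, 30.9, 41.5 and 48.6 CPM. ColxLer A and B had 29.4 and 39.5 CPM and LerxCol A and B 41.1 and 33.98 CPM. Every hybrid library with a Ler parent was thus above all Ler libraries, at levels that overlapped the other parent. In crosses without Ler, C24xCol A and B had 37.3 and 49.9 CPM and ColxC24 A and B 36.7 and 58.8 CPM, so the highest level of all was in ColxC24 B. In letters A and B, Ler (15.96 ± 1.66 CPM, SD, n = 2) did not overlap its neighbour in the order, C24 (33.1 ± 2.08), and the other 7 pairs of neighbours overlapped.

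**Figure D2:**
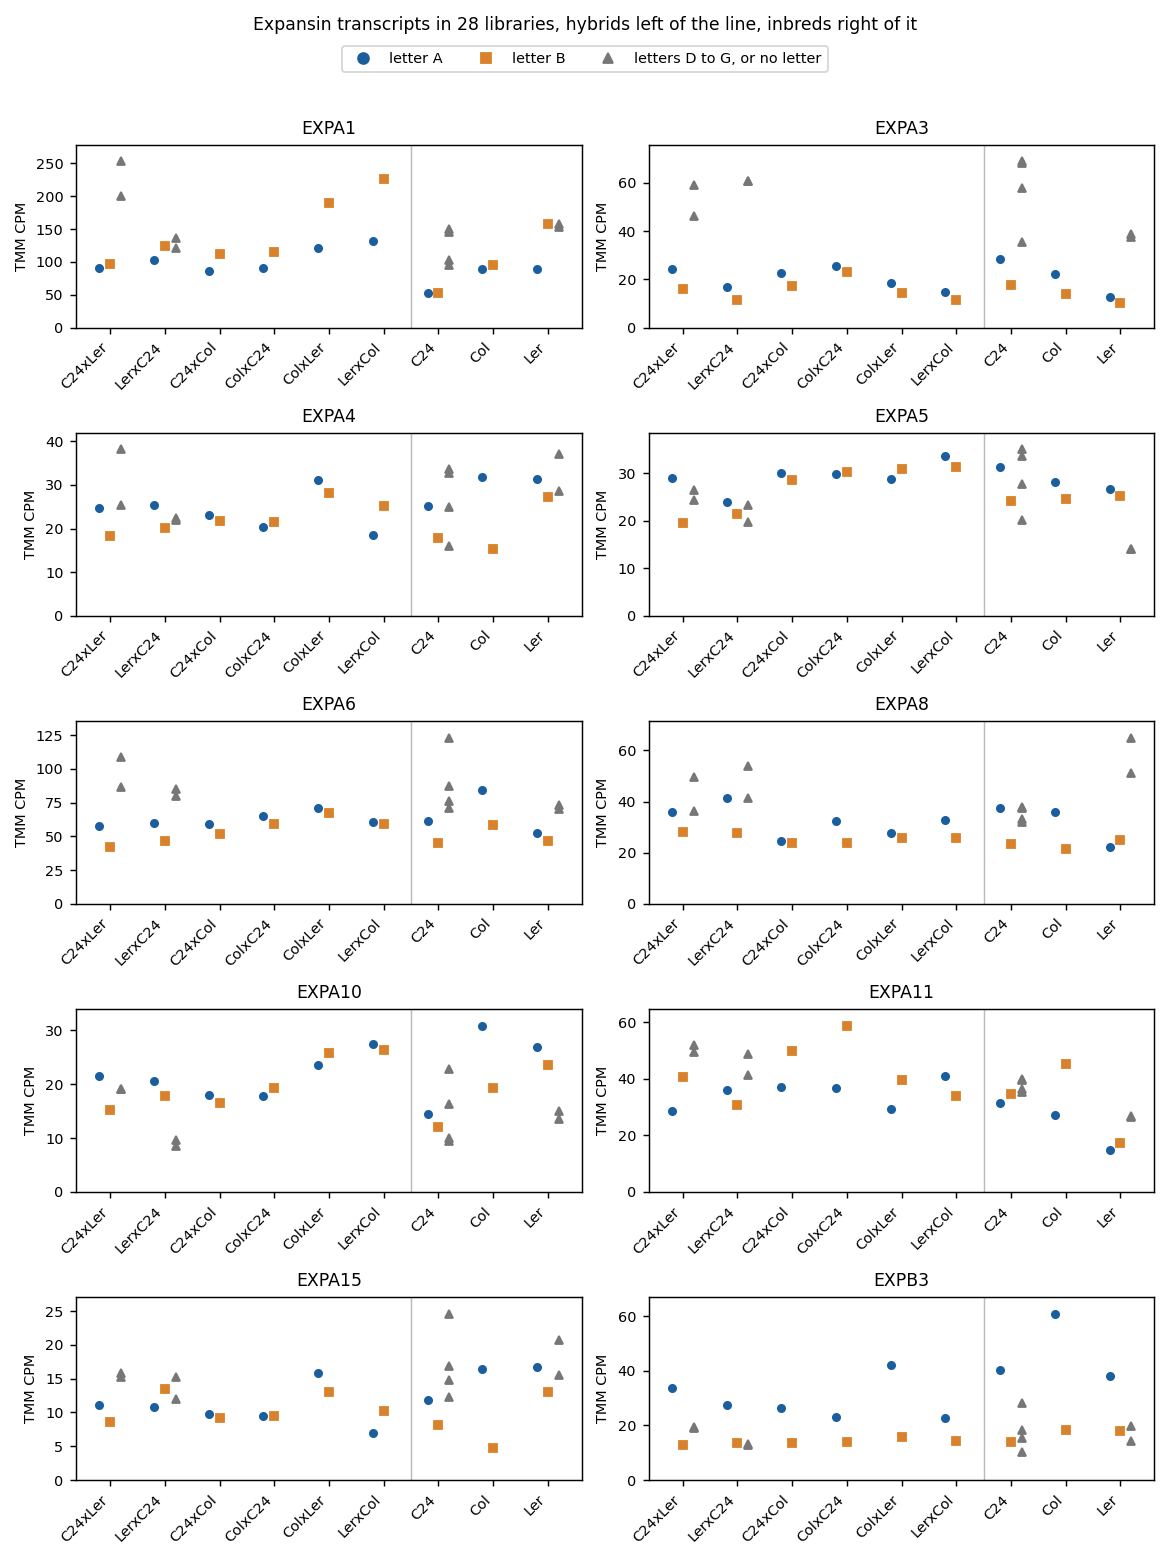
Level of each of the 10 transcripts in 28 libraries, in TMM CPM on linear axes from 0, with 1 point per library; hybrids stand left of the grey line and inbreds right of it, and colours and shapes give the library letter. EXPA11 is lowest in the 4 Ler libraries (14.8 to 27.0 CPM), EXPA1 is lowest in C24 A and B (53.1 and 52.7 CPM), and EXPB3 is higher in letter A than in letter B in all 9 genotypes.

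The test of C24 against Ler called EXPA11 alone of the 10 members (edgeR, 18 libraries of C24, Ler and their hybrids), against 14.3% of all 29528 genes tested. EXPA11 rose by 0.76 ± 0.20 on the log2 scale in C24 over Ler (adjusted p = 0.0134, all 6 C24 libraries above all 4 Ler libraries). The call was lost without Ler A (0.62, adjusted p = 0.0511), without Ler B (0.66, adjusted p = 0.0522) and when Ler D and Ler E were added (0.41, adjusted p = 0.261), in a range of 0.000675 to 0.32 over 30 alternatives. Libraries of the same letter deviated together in every pair of groups, so the letter was also fitted as a block. With that block (16 libraries, with U1 and U2 dropped because table and titles give them different letters), 7 of 10 members were called, against 32.2% of 29814 genes. EXPA3 (0.82 ± 0.10), EXPA5 (0.41 ± 0.13) and EXPA11 (0.74 ± 0.13) rose in C24. EXPA1 (-0.91 ± 0.13), EXPA4 (-0.57 ± 0.14), EXPA10 (-0.69 ± 0.11) and EXPA15 (-0.45 ± 0.16) fell in C24. EXPA6, EXPA8 and EXPB3 were not called. With U1 and U2 kept under the table's letters D and E, a choice made after the values were seen, 5 members were called, against 24.4% of all genes. EXPA10 (-0.55, adjusted p = 0.126) and EXPA15 (-0.38, adjusted p = 0.18) were then not called.

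Within letters, C24 minus Ler had the same sign in A, B, F and G for 6 of the 7 called members, and EXPA5 was the exception. The block fit that called the 7 rests in large part on these same differences, so the equal signs are not separate support. EXPA1 differed by -0.75, -1.57, -0.73 and -0.58 in letters A, B, F and G, and EXPA10 by -0.88, -0.93, -0.64 and -0.40. EXPA3 differed by 1.14, 0.74, 0.57 and 0.87 and EXPA11 by 1.07, 0.99, 0.40 and 0.55, so that both were higher in C24 in each letter. EXPA5 differed by 0.22, -0.06, 0.51 and 0.95, largest in F and G and below 0 in B. The median change of the 10 was -0.13 with genotype alone and -0.23 with the block, beside -0.006 and 0.0001 over all genes tested. The floral organ markers AP3, PI, AG and SEP3, all detected in every genotype, summed to 16.3 to 26.24 CPM in Ler and to 6.642 to 10.63 CPM in the other genotypes. Their sum moved with the accession, but the 4 markers did not vary alike. Over the 28 libraries SEP3 varied 16.6-fold and AP3 11.2-fold, against 2.98-fold for AG and 1.90-fold for PI, each highest in a Ler library. The part of these markers in the expansin differences was not tested.

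**Figure D3:**
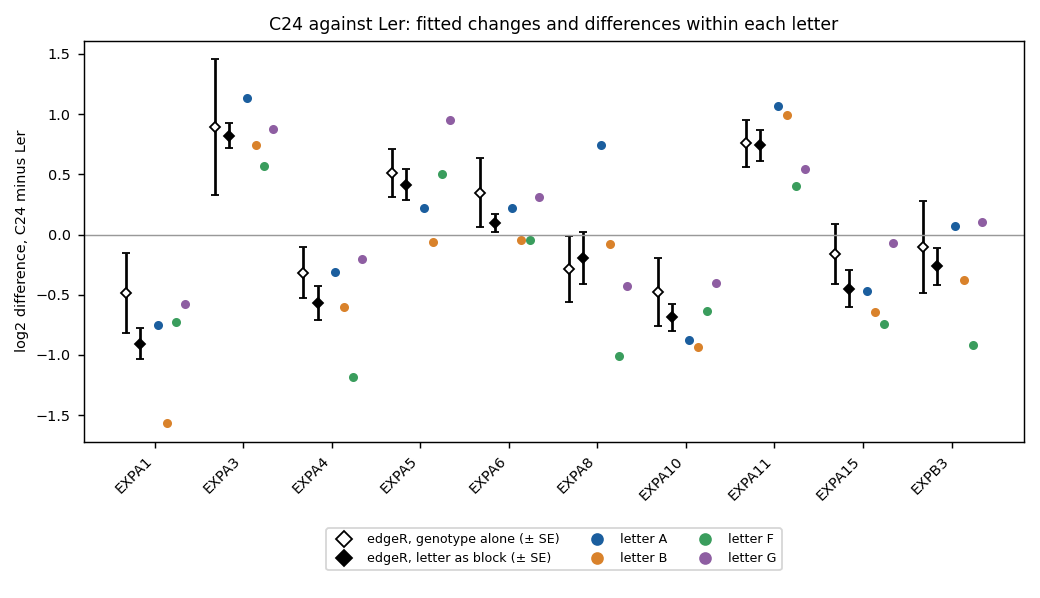
C24 minus Ler on the log2 scale for each of the 10 transcripts: edgeR estimates with genotype alone (open diamonds) and with the letter as block (filled diamonds), each ± SE, and the difference between same-lettered libraries (coloured points). EXPA3 and EXPA11 lie above 0 and EXPA1, EXPA4, EXPA10 and EXPA15 below 0 in all 4 letters, and the block narrows the SE of EXPA3 to 0.10, against 0.57 with genotype alone.

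EXPA1 and EXPA10 were both lowest in C24 when only letters A and B were compared. Whether the promoter stretch they share bears on their levels was not tested. C24 A and B had 53.1 and 52.7 CPM of EXPA1, against 89.0 and 95.6 CPM in Col and 89.8 and 157.3 CPM in Ler. EXPA10 stood at 14.4 and 12.1 CPM in C24 A and B, against 30.8 and 19.2 CPM in Col and 26.9 and 23.5 CPM in Ler. For neither gene did C24 overlap Col or Ler in letters A and B, and how many of all genes separate C24 like this was not counted. Outside letters A and B, C24 D to G reached 95.1 to 150.6 CPM of EXPA1, against 157.8 and 153.8 CPM in Ler F and G. For EXPA10, C24 F and G had 9.46 and 10.0 CPM, against 15.0 and 13.4 CPM in Ler F and G, while C24 E reached 22.8 CPM. In letters A and B, EXPA10 had 15.1 to 21.4 CPM in the 4 hybrids with a C24 parent and 23.6 to 27.3 CPM in ColxLer and LerxCol, which do not overlap. Outside these letters, C24xLer D and E had 19.2 and 19.1 CPM and LerxC24 U1 and U2 8.60 and 9.60 CPM. The share of all genes with this split was not counted.

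EXPA4 (AT2G39700) and EXPA15 (AT2G03090), 2 alpha-expansins with like patterns, were lower in C24 than in Ler in each shared letter. EXPA4 had a low of 15.97, a median of 25.0 and a high of 33.7 CPM in the 6 C24 libraries, against 31.3, 27.2, 37.0 and 28.7 CPM in Ler A, B, F and G. EXPA15 had a low of 8.13, a median of 13.5 and a high of 24.6 CPM in C24, against 16.7, 13.0, 20.8 and 15.5 CPM in Ler. Across letters the groups overlapped for both genes. In Col A and B the values lay far apart, 31.8 and 15.2 CPM of EXPA4 and 16.5 and 4.80 CPM of EXPA15.
EXPA5 (AT3G29030) had a low of 20.1, a median of 29.5 and a high of 35.0 CPM in C24, against 26.7, 25.2, 13.99 and 14.08 CPM in Ler A, B, F and G, and its 2 lowest values of all were those of Ler F and G. EXPA8 (AT2G40610) had a low of 23.5, a median of 35.3 and a high of 38.0 CPM in C24, against 22.2, 24.8, 65.1 and 51.3 CPM in Ler, so Ler held both low and high values. C24 minus Ler for EXPA8 was 0.74, -0.08, -1.01 and -0.43 in letters A, B, F and G. Among the hybrids, EXPA5 lay between 19.6 CPM in C24xLer B and 33.7 CPM in LerxCol A, and EXPA8 between 23.9 CPM in C24xCol B and 54.0 CPM in LerxC24 U2.

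C24 against Col was tested in the 18 libraries lettered A and B. EXPA10 fell by 0.92 ± 0.21 in C24 (adjusted p = 0.00994, both C24 libraries below both Col libraries) and was the sole member called, against 13.3% of 29777 genes. The call was lost without C24 B (-0.79, adjusted p = 0.0893) and without Col A (-0.54, adjusted p = 0.103), in a range of 0.000544 to 0.391 over its 24 alternatives. With the letter as block, EXPA1 (-0.79 ± 0.20), EXPA6 (-0.42 ± 0.12) and EXPA10 (-0.90 ± 0.17) fell and EXPA3 rose (0.36 ± 0.12), against 21.7% of all genes called.

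For Col against Ler, EXPA11 alone was called with genotype alone, at 1.18 ± 0.29 (adjusted p = 0.0181, both Col libraries above both Ler libraries), where 13.9% of all genes were called. The call was lost without Ler A (1.08, adjusted p = 0.137), without Ler B (1.303, adjusted p = 0.0642) and without Col B (0.77, adjusted p = 0.158), in a range of 0.00093 to 0.63 over 24 alternatives. With the block, EXPA3 (0.61 ± 0.12), EXPA6 (0.51 ± 0.12) and EXPA11 (1.16 ± 0.23) rose in Col, against 23.6% of all genes. Both fits thus put EXPA11 and, with the block, EXPA3 lower in Ler than in C24 and in Col; these comparisons share the Ler libraries. EXPA3 had 28.6 and 17.8 CPM in C24 A and B and 22.1 and 13.97 CPM in Col A and B, against 12.7 and 10.4 CPM in Ler A and B, the lowest inbred values in each letter. EXPA6 (AT2G28950) was the second of the 10 in level per length. It had 84.6 and 58.2 CPM in Col A and B, against 52.6 and 46.4 CPM in Ler A and B, with no overlap. How many of all genes separate Col from Ler like this was not counted.

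The hybrids were set against the mid-parent, the mean of both parents on the log scale; families share parents, so their changes are not independent. EXPA11 and EXPA1 had the largest positive changes in all 3 families, and with genotype alone no member was called in any. The C24/Ler family (both directions averaged) had 0 of 10 called by edgeR, against 0.769% of all genes; 1 member, EXPA11, was below 0.05 unadjusted and was called by DESeq2. For the C24/Col hybrids, 0 were called, against 1.24% of all genes, with EXPA1 below 0.05 unadjusted and 0 called by DESeq2. The Col/Ler hybrids likewise had 0 called, against 1.12%, with EXPA1, EXPA5 and EXPA11 below 0.05 unadjusted and 0 called by DESeq2. Here and in the paragraphs that follow, the shares of all genes are at an adjusted p below 0.05. How many of all genes were below 0.05 unadjusted was not counted, so members named at that threshold have no share to be set against.
EXPA11 was 0.55 ± 0.14 above the mid-parent in C24/Ler hybrids, 0.40 ± 0.20 in C24/Col hybrids and 0.58 ± 0.20 in Col/Ler hybrids. EXPA1 was 0.24 ± 0.25, 0.54 ± 0.22 and 0.64 ± 0.22 above it in the same families. With the letter as block, EXPA11 rose in C24/Ler hybrids (0.61 ± 0.11, against 2.77% of all genes called), and EXPA1 rose in C24/Col hybrids (0.52 ± 0.14, 7.44%) and in Col/Ler hybrids (0.63 ± 0.14, 4.22%). EXPA1 was above the mid-parent in letters A and B of every family, by 0.27 to 0.75.

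**Figure D4:**
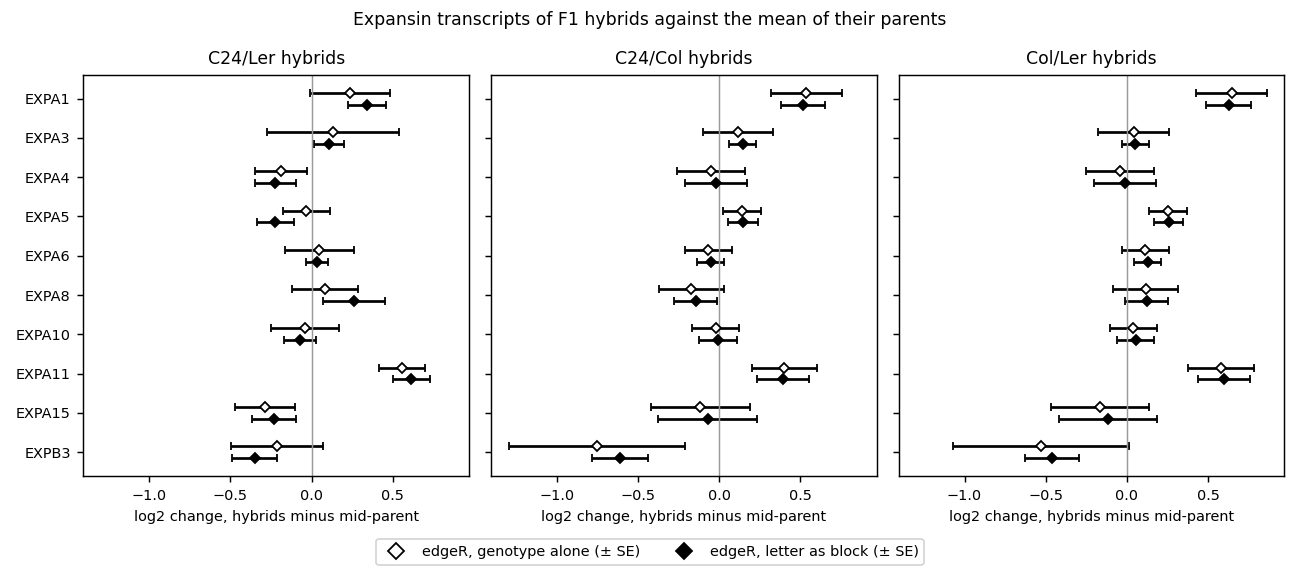
Change of the 10 transcripts in hybrids over the mid-parent on the log2 scale, ± SE, in 3 families, from edgeR with genotype alone (open) and with the letter as block (filled). EXPA1 and EXPA11 lie to the right in every family (0.24 to 0.64), EXPB3 to the left (-0.76 to -0.21 with genotype alone), and the others between -0.29 and 0.26.

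No difference between families was called. Of the 10 members, 0 were called by edgeR or DESeq2 for C24/Ler against C24/Col (0.39% of all genes by edgeR), for C24/Ler against Col/Ler (0.41%) and for C24/Col against Col/Ler (0.423%). EXPA5 alone was below 0.05 unadjusted, in the first 2 of these differences and at -0.33 and -0.45, and no member was in the third. Taking the 6 hybrid genotypes against the 3 inbreds, 0 members were called by edgeR with genotype alone, against 2.44% of all genes, with EXPA1 (0.51 ± 0.16) and EXPA11 (0.52 ± 0.15) below 0.05 unadjusted; DESeq2 called both. With the letter as block, EXPA1 (0.50 ± 0.10) and EXPA11 (0.52 ± 0.12) rose and EXPB3 fell (-0.46 ± 0.12) in hybrids, against 13.3% of all genes called.

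Set against each parent, the C24/Ler hybrids rose over Ler in EXPA11 by 0.93 ± 0.19 (adjusted p = 0.00751, all 8 hybrid libraries above all 4 Ler libraries), where 3.7% of all genes were called. Leaving out any 1 library did not end that call, and adding Ler D and Ler E did (0.59, adjusted p = 0.16), in a range of 8.49e-05 to 0.16 over 30 alternatives. With the block EXPA11 (0.98 ± 0.14) and EXPA3 (0.51 ± 0.11) rose and EXPA10 (-0.41 ± 0.12) fell against Ler, beside 10.6% of all genes. With U1 and U2 under the table's letters, EXPA3 (0.63, adjusted p = 0.0792) and EXPA10 (-0.57, adjusted p = 0.195) were not called. Against C24, 0 members were called with genotype alone (5.24% of all genes), with 0 below 0.05 unadjusted and 0 called by DESeq2. With the block, EXPA1 rose (0.79 ± 0.13) and EXPA5 fell (-0.43 ± 0.12) against C24, beside 15% of all genes, and with U1 and U2 under the table's letters EXPA1 was not called (0.55, adjusted p = 0.0723).
In C24/Col hybrids, 0 members were called against C24 (7.11% of all genes), with EXPA1 and EXPA10 below 0.05 unadjusted and EXPA1 called by DESeq2. Against Col 0 were called (3.63%), with EXPA10 below 0.05 unadjusted and 0 called by DESeq2. With the block, EXPA1 rose over C24 (0.91 ± 0.18, 17.4% of all genes) and EXPB3 fell against Col (-0.87 ± 0.20, 11.5%).
In Col/Ler hybrids, EXPA11 rose over Ler by 1.17 ± 0.26 (adjusted p = 0.0171, all 4 hybrid libraries above both Ler libraries of these letters), where 8.42% of all genes were called. Without Ler A (1.07, adjusted p = 0.201), Ler B (1.295, adjusted p = 0.0708), ColxLer B (1.06, adjusted p = 0.0506) or LerxCol A (1.099, adjusted p = 0.0521) this call was lost, in a range of 0.000164 to 0.41 over 24 alternatives. Against Col, 0 members were called (2.22%), with EXPA1 below 0.05 unadjusted and called by DESeq2. With the block, EXPA3 (0.36 ± 0.11), EXPA6 (0.38 ± 0.10) and EXPA11 (1.18 ± 0.21) rose over Ler, against 18.5% of all genes, and EXPA1 rose over Col (0.82 ± 0.17, 6.72%). EXPA1 reached 120.5 and 189.8 CPM in ColxLer A and B and 131.4 and 226.3 CPM in LerxCol A and B, against 89.0 and 95.6 CPM in Col and 89.8 and 157.3 CPM in Ler, above both parents in each letter. That was not a call beyond both parents: 0 members passed against each parent in the same direction in C24/Ler (0.0169% of all genes), C24/Col (0.138%) or Col/Ler hybrids (0.0101%), by edgeR with or without the block or by DESeq2.

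The direction of the cross was tested in each pair, and 0 members were called by edgeR or DESeq2. For C24xLer against LerxC24, 0.00339% of all genes were called, and for C24xCol against ColxC24 and ColxLer against LerxCol 0%, with 0 members below 0.05 unadjusted in any of the 3. The largest difference of a member was that of EXPA15 in ColxLer over LerxCol, 0.74 on the log2 scale, from 15.8 and 13.1 CPM against 7.03 and 10.2 CPM. With the block, EXPA3 was below 0.05 unadjusted in all 3 and called in none, at 0.56 ± 0.14, -0.30 ± 0.12 and 0.33 ± 0.12. How many of all genes were below 0.05 unadjusted was not counted, and at an adjusted p the block fit called 0, 5 and 0 genes. That fit drops LerxC24 U1 and U2, and with these under the table's letters EXPA3 differed by 0.10 ± 0.19 between C24xLer and LerxC24 (adjusted p = 0.825).

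Several members also differed between libraries A and B of the same genotype, a comparison made after the values were seen. With genotype in the fit, A against B called 5 of 10 members, against 29.8% of all genes. EXPB3, the sole beta-expansin of the set, rose most in A (1.17 ± 0.11) and was higher in A than in B in 9 of 9 genotypes, by 0.65 to 1.71. Its level was 60.9 CPM in Col A and 18.2 CPM in Col B, 42.3 and 15.7 CPM in ColxLer A and B, and 40.2 and 13.8 CPM in C24 A and B. EXPA3 (0.45 ± 0.06), EXPA6 (0.27 ± 0.06) and EXPA8 (0.34 ± 0.09) also rose in A. EXPA1 fell in A (-0.38 ± 0.09) and was lower in A in 8 of 9 genotypes. The labels do not say what the letters stand for.
The libraries of other letters stood further apart for EXPA3. It averaged 57.6 CPM in C24 D to G and 38.1 CPM in Ler F and G, against 23.2 and 11.6 CPM in A and B of the same accessions. In C24xLer D and E it averaged 52.7 CPM and in LerxC24 U1 and U2 60.8 CPM, against 20.3 and 14.3 CPM in A and B. These groups did not overlap in any of the 4 genotypes. The same held for EXPA6, with 89.6, 71.9, 97.9 and 82.5 CPM in the other letters of C24, Ler, C24xLer and LerxC24, against 53.2, 49.5, 50.2 and 53.4 CPM in A and B. It held for EXPA11 too, with 37.9, 26.8, 50.6 and 45.1 CPM against 33.1, 15.96, 34.7 and 33.4 CPM. The share of all genes that separate in this way was not counted. The 4 shoot markers summed to 25310 to 33790 CPM in the 10 libraries of other letters, against 33670 to 46390 CPM in the 18 of A and B. A pair of shoot meristem markers, STM and CLV3, both detected, summed to 4.565 to 11.44 CPM there, against 1.973 to 5.24 CPM in A and B. STM averaged 4.43 CPM and CLV3 0.349 CPM over the 28 libraries. In the 6 C24 libraries of all letters the pair summed to 4.594 to 7.631 CPM. The libraries of A and B also include Col and its hybrids, so these marker ranges mix letter with genotype. The markers' part in the EXPA3, EXPA6 and EXPA11 levels was not tested.

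**Figure D5:**
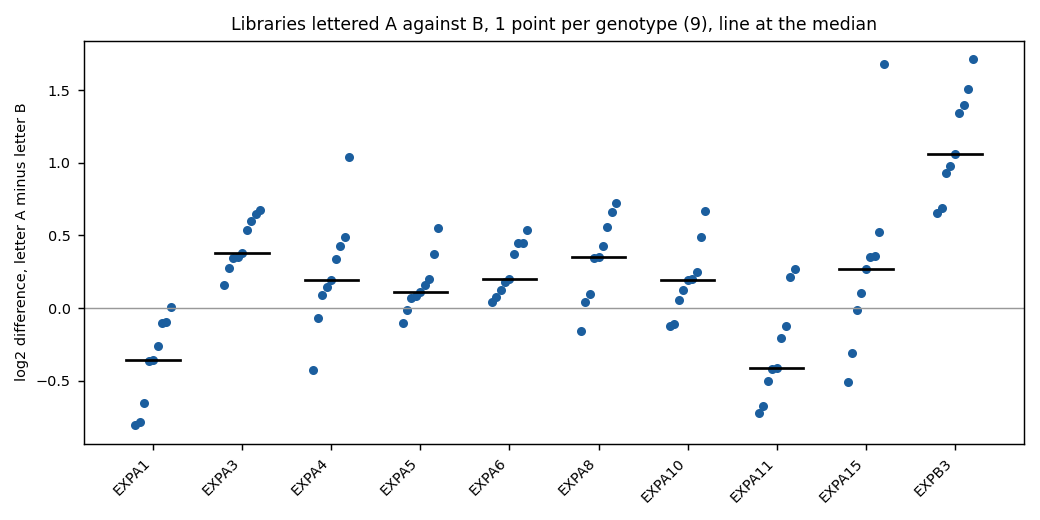
Letter A minus letter B on the log2 scale for each of the 10 transcripts, with 1 point for each of 9 genotypes in order of size and a line at the median. All 9 points of EXPB3 lie above 0 (0.65 to 1.71, median 1.06), as do those of EXPA3 and EXPA6, while 8 of 9 points of EXPA1 lie below 0.

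Among themselves, EXPA4 and EXPA15 had similar patterns over the 28 libraries (Pearson r = 0.81 of log2(CPM + 0.5)), and r was 0.90 in letters A and B. EXPA3 and EXPA6 also had r = 0.81 over the 28, but 0.46 in letters A and B. EXPA3 and EXPA10 ran opposite (r = -0.61 over the 28, -0.32 in A and B). EXPA1 and EXPA10 had r = 0.24 over the 28 and 0.62 in A and B. These correlations are descriptions over libraries that share letters and genotypes. Outside the 10, and of 17048 loci compared by the same measure, EXPA11 was most like ANL2, a homeodomain gene (r = 0.85), the kinase gene WNK1 (0.84) and IAA7, an auxin response repressor (0.83). EXPA3 was most like AT5G08390 (0.95), the fatty acid desaturase gene FAD3 (0.95) and the tubulin gene TUA2 (0.94). EXPB3 was most like AT5G41460 (0.91), AT5G19730 (0.90) and the protease gene ASPG1 (0.89). In letters A and B alone, the loci named for EXPA3 had r = 0.82, 0.71 and 0.68 with it. Those named for EXPA11 had 0.94, 0.89 and 0.90 there, and those for EXPB3 0.93, 0.94 and 0.92.

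The other expansins were compared in the same fits. Of 26 listed, 22 were tested with genotype alone. For C24 against Ler, EXPA7, an expansin of root hairs, rose by 1.33 ± 0.18 and EXPA13 by 0.57 ± 0.13, while EXPA16 fell by 0.96 ± 0.30 and EXPA19 by 1.73 ± 0.25, so 2 rose and 2 fell, where 14.3% of all genes were called. For C24 against Col 3 rose (EXPA14, EXPA17 and EXLB1) and 3 fell (EXPA19, EXPA21 and EXPA25), where 13.3% of all genes were called. For Col against Ler 3 rose (EXPA7 by 1.70 ± 0.13, with EXPA21 and EXPA25) and 2 fell (EXPA14 and EXPA17), where 13.9% were called. EXPA19, EXPA21 and EXPA25 averaged 0.901, 0.169 and 0.129 CPM, so their changes rest on few reads, and EXPA21 and EXPA25 belong to a cluster of close copies whose reads may be split. Against the mid-parent, EXLB1 fell in C24/Col hybrids (-0.48 ± 0.08), while 0 of 22 were called in the other 2 families by edgeR. There 2 and 4 were below 0.05 unadjusted in C24/Ler and Col/Ler hybrids, and DESeq2 called 1 and 0. With the letter as block, 5 rose and 2 fell of 25 tested for C24 against Ler, with EXLB1 (0.70 ± 0.13), EXPA12 and EXPA18 added, against 32.2% of all genes, so their share was below that of all genes. EXPA20 fell in C24/Ler hybrids (-0.33 ± 0.08), EXPA16 rose (0.62 ± 0.10) and EXPB1 fell (-0.49 ± 0.11) in C24/Col hybrids, and EXPA7 rose in Col/Ler hybrids (0.40 ± 0.10).

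The shares of all genes called in these comparisons, given above, hold for the lists that follow. They do not apply to counts below 0.05 unadjusted. Of 14 genes of wall acidification, proton pumps of the AHA family and the SAUR19 group that activates them, SAUR19 rose in C24 over Ler (1.07 ± 0.34). In Col over Ler 3 rose, SAUR19 (1.07 ± 0.23), SAUR22 (1.17 ± 0.24) and SAUR23 (1.09 ± 0.20), and the pump gene AHA1 fell (-0.56 ± 0.09). AHA3 (-0.62 ± 0.10) and AHA10 (-0.63 ± 0.14) fell in C24 against Col. The SAUR19 group consists of near-identical copies, so the split of reads among them is uncertain. Against the mid-parent 0 of 14 were called by edgeR in any family, with 0, 0 and 4 below 0.05 unadjusted in C24/Ler, C24/Col and Col/Ler hybrids, and DESeq2 called 0, 0 and 1. With the letter as block, 3 rose and 5 fell of the 14 for C24 against Ler, where 32.2% of all genes were called, among them AHA1 (-0.67 ± 0.08), AHA2 (-0.42 ± 0.10) and AHA3 (-0.56 ± 0.06) lower in C24, and SAUR22 rose in Col/Ler hybrids over the mid-parent (0.73 ± 0.16).
Of 22 genes of xyloglucan remodelling and cellulose synthesis, XTH5 (0.42 ± 0.11), XTH17 (1.01 ± 0.30) and XTH23 (1.02 ± 0.31) rose in C24 over Ler; with the block 4 rose and 1 fell, XTH9 (-0.46 ± 0.16). With 14.3% of all genes called with genotype alone and 32.2% with the block, the list's share was near or below that of all genes. None was called against the mid-parent by edgeR or DESeq2, with 1, 0 and 0 below 0.05 unadjusted in the 3 families, while with the block CESA1 rose in C24/Col hybrids (0.19 ± 0.05). Of 18 growth regulators, PRE6, a small helix-loop-helix protein that promotes elongation, rose over the mid-parent in C24/Col hybrids (0.57 ± 0.09) and Col/Ler hybrids (0.54 ± 0.09) and in all hybrids over inbreds (0.46 ± 0.06). In Col over Ler, PIF4 (0.73 ± 0.19), PRE6 (0.72 ± 0.12) and IBH1, which restrains elongation (1.26 ± 0.18), rose. IBH1 fell (-0.86 ± 0.18) and the organ size gene ANT rose (0.61 ± 0.13) in C24 against Col, and the growth coactivator gene GIF1 fell in C24 against Ler (-0.68 ± 0.20). With the block, 2 rose and 2 fell for C24 against Ler, against 32.2% of all genes, and ARGOS, which promotes organ growth, rose over the mid-parent in C24/Ler hybrids (0.54 ± 0.13). For all hybrids against inbreds, 6 of the 18 then rose and 0 fell, where 13.3% of all genes were called, among them PRE1 (0.36 ± 0.09), HBI1 (0.41 ± 0.11) and PIF4 (0.28 ± 0.08).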

How the data were processed

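mRNA of pooled shoots was sequenced. The authors deposited raw read counts per gene in 1 table. TAIR10 and FastQC are named per the submitters' processing notes. Aligner, counter and strand setting were not given in the sources used here. Members, gene lists and contrasts were chosen with earlier results of these data known.

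Counts of the libraries listed in the report were scaled by TMM and tested with edgeR 4.0.16 (R 4.3.3, quasi-likelihood, Benjamini-Hochberg adjustment over all genes passing filterByExpr), in a fit of 18 libraries of C24, Ler and their hybrids (29528 genes) and a fit of the 18 libraries lettered A and B (29777 genes). The scripts were tested on simulated data. Genes are named from the 10 members and from lists of other expansins and growth genes, by passing the test. Sequences come from NCBI's TAIR10.1 and were aligned with Biopython 1.88.

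Same-lettered libraries deviated from their group means together (r = 0.264 to 0.708 in 36 distinct pairings of genotypes, since A and B mirror each other in groups of 2, and 0.462 to 0.807 in 16), so the letter, taken from the titles, was also fitted as a block. Alternatives were DESeq2 1.42.0, RLE scaling, no filter, other library sets and each library left out. No 2 replicates agreed within counting noise. With pools of seedlings as samples, p-values measure the spread between pools, which with genotype alone includes the differences between letters.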

Additional observations from a re-analysis of the deposited data

Results flagged for a closer look

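Among 40 groups of a member's values in 4 or 6 libraries, chance is expected to mark about 1 in 20, and 2 were marked for a library far from the others. EXPA1 was 89.77 CPM in Ler A, while the nearest of the other Ler libraries had 153.8 CPM. EXPB3 was 27.32 CPM in LerxC24 A, while the nearest of the other LerxC24 libraries had 13.62 CPM.

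The libraries outside the 28 also held high values, on a scaling over all 34. The lower of Ler D and Ler E had more of 4 members than any of the other 4 Ler libraries of letters A, B, F and G: EXPA1 with 185.8 CPM against at most 165.3, EXPA6 with 109.9 against 76.96, EXPA11 with 33.64 against 28.41, and EXPA15 with 23.97 against 21.75. Even the lowest of the 4 libraries lettered C had more EXPA4 (51.6 CPM against at most 39.98) and more EXPA15 (30.73 CPM against at most 25.86) than every one of the 28.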

How the results depend on the processing

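With the letter as replicate block, the number of the 10 members called became 7 for C24 against Ler, 4 for C24 against Col, 3 for Col against Ler, 1 for each of the 3 mid-parent comparisons and 3 for all hybrids against inbreds; calls that the block changed are given in the report, and it changed no other call of a member. For C24 against Ler, letters A and B alone called 4 (16.1% of all genes), also with the block (26%), 28 libraries in 1 fit called 2 (18.4%), and 34 libraries (7.04%), the 24 libraries of these genotypes (4.99%) or those less letter C (13.3%) called 0. The block with the table's letters D and E for U1 and U2, chosen after seeing the data, called 5 (24.4%), and 1 for C24/Ler hybrids against the mid-parent (2.44%). For C24 against Col, fits of 28 (12.4%) or 34 libraries (3.84%) called 0, as they did for Col against Ler (8.98% and 2.26%). DESeq2 called 1 for C24/Ler hybrids against the mid-parent (1.51%) and 2 for all hybrids against inbreds (5.74%). With 1 library left out, the count ranged over 0 to 1 for C24 against Ler, C24 against Col, C24/Ler hybrids against the mid-parent and all hybrids against inbreds, and over 0 to 3 for Col against Ler. EXPA15 reversed, to 1.06 (adjusted p = 0.0466) in C24 over Col without Col A, against -0.08 with it and -0.72 without Col B. Of 3420 member values with 1 library left out, 3346 kept direction and side of the threshold or moved less than their error, and of 1480 under other alternatives 1340 did. Most of these values were not called with genotype alone, so they had no call to lose. With 1 library left out, 11 values lost a call, and only the call of EXPA11 in C24/Ler hybrids over Ler was never lost. The causes were not tested.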
